A study of Mus musculus with 1 sample.

Results

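The poly(A) tails of Aldh2 transcripts were examined in wild-type 24h-EpiLCs, mouse epiblast-like cells taken 24 h after the start of differentiation from ESCs. Aldh2 was chosen by its gene tail length, the geometric mean of the tail lengths of its transcripts, which was among the longest in these same cells. Its tail length, its shares of short and long tails, their spread and its place among genes therefore only describe it and carry no test. Aldh2 was 1 of 12842 genes with a transcript, and 126 of 803537 transcripts were its own, 60 in replicate 1 and 66 in replicate 2. Aldh2 (ENSMUSG00000029455) is a protein-coding gene on the minus strand of chromosome 5 (GRCm38, 121566027 to 121593824). It has 7 annotated transcripts, of which 5 are coding. The longest, Aldh2-201, has 3867 nt in 13 exons.

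PAIso-seq, which reads full-length cDNA together with the poly(A) tail on the PacBio platform, was the only measurement. The cells were of the ICR strain and were grown as EpiLCs on Matrigel in N2B27 medium with activin A, bFGF and KSR. They formed 1 group, with 2 replicates told apart by barcode. The labels do not say which barcode marks which replicate, nor whether the replicates came from separate cultures, so they are numbered by barcode and their spread may be technical. Cnot8 KO cells were not analysed here. The replicates held 246316 and 455660 transcripts of nuclear genes from reads with at least 7 passes around the circular molecule. Mitochondrial genes took 18.3% and 9.23% of assigned transcripts and were kept apart. The 5 markers shared by pluripotent states and the 7 formative markers were all detected, with 303 transcripts of Pou5f1, 160 of Otx2 and 37 of Fgf5. Of 8 naïve markers 7 were detected, led by Zfp42 with 501 transcripts, and Prdm14 had none. The fibroblast, endoderm, trophoblast and mesoderm lists summed to at most 3 transcripts each in a replicate.

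Aldh2 encodes the aldehyde dehydrogenase of the mitochondrial matrix that oxidises acetaldehyde to acetate with NAD+, and it also clears reactive aldehydes formed by lipid peroxidation. Its mRNA is made from a nuclear gene and translated in the cytosol. A poly(A) tail is added to such an mRNA in the nucleus, bound by poly(A)-binding proteins, and shortened in the cytoplasm by deadenylases, among them those of the Ccr4-Not complex. Removal of the tail commonly precedes decay of the mRNA.

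The tails themselves were almost pure A. The following 4 Aldh2 tails show the range of lengths and the kinds of bases other than A that were read. They are written 5′ to 3′ from the end of the transcript body, with A in lower case and every other base in capitals. The first is the shortest Aldh2 tail, of 33 nt in replicate 1. The second, of 94 nt in replicate 2, has a C within the tail and a G near its end. The third, of 140 nt in replicate 1, was close to the typical Aldh2 length and ended in T. The fourth, of 190 nt in replicate 2, held a single C far from either end.
tail of 33 nt: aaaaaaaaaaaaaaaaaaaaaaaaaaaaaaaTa
tail of 94 nt: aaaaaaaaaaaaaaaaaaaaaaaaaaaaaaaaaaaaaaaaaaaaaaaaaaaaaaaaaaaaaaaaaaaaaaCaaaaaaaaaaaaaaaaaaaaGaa
tail of 140 nt: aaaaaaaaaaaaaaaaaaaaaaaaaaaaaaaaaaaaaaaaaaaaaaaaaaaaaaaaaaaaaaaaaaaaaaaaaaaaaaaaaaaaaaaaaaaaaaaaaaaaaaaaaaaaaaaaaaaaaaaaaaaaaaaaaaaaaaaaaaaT
tail of 190 nt: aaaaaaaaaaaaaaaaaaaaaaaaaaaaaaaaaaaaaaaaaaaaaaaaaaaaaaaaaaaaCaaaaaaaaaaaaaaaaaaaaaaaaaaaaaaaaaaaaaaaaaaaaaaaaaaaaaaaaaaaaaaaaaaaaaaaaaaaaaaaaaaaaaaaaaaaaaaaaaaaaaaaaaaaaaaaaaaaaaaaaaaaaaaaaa

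Aldh2 transcripts had long tails in both replicates. Replicate 1 gave a gene tail length of 136 nt and replicate 2 one of 141 nt, or 139 nt ± 3.84 (SD, n = 2). All other nuclear transcripts had geometric means of 77.2 nt and 73.9 nt in the same order. Aldh2 was thus above the other transcripts in each replicate, by the measure that chose it. The median Aldh2 tail was 144 nt in replicate 1, with a 95% interval from order statistics of 136 to 152 nt. In replicate 2 the median was 158 nt (137 to 166 nt). These intervals overlapped, and both lay above the median of 91 nt that the other nuclear transcripts had in each replicate.

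The short end of the distribution held few Aldh2 tails. The shortest Aldh2 tails of the replicates had 33 and 63 nt. The 10th percentile of the pooled Aldh2 tails was 92.5 nt, above the median of the other nuclear transcripts. Only 2 of 126 Aldh2 tails, 1.59%, were under 60 nt, against 28.8% of the others. No Aldh2 tail was under 30 nt, and 0 of 126 allows a share of up to 2.38%, while 10.1% of the other nuclear tails were that short. Aldh2 was thus nearly without the short tails that were common among other transcripts.

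Tails over 90 nt made up 91.7% of Aldh2 transcripts in replicate 1 (55 of 60, 95% Wilson interval 81.9% to 96.4%) and 90.9% in replicate 2 (60 of 66, 81.6% to 95.8%). The mean was 91.3% ± 0.536 (SD, n = 2), and 50.6% of all other nuclear tails were over 90 nt. Tails over 150 nt made up 40.0% and 51.5% of Aldh2 transcripts, against 15.6% of the others. The share over 90 nt was thus nearly equal in the replicates, whereas the share over 150 nt differed by more. Very long tails remained rare. Over 200 nt there were 4 Aldh2 tails in replicate 1 (6.67%, 2.62% to 15.9%) and 5 in replicate 2 (7.58%, 3.28% to 16.5%). Together they made 7.14% (3.80% to 13.0%), against 2.32% of the other nuclear tails. The longest Aldh2 tail had 308 nt.

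Between these extremes the Aldh2 tails were packed into a narrow range. The pooled quartiles were 116.5 and 170.5 nt, and the SD of log2 tail length was 0.464, against 1.26 for all other nuclear transcripts. By length class, tails of 151 to 180 nt were the most frequent at 30.2%, followed by 25.4% of 121 to 150 nt and 19.8% of 91 to 120 nt. Among all nuclear transcripts the class of 151 to 180 nt held 10.3%. The replicates did not share a most frequent class. Replicate 1 had 20 tails of 121 to 150 nt and 15 of 151 to 180 nt, while replicate 2 had 12 and 23. The largest gap between the cumulative distributions of the 2 replicates was 0.232 for Aldh2. Among 91 genes with 50 to 80 transcripts per replicate, this gap had a median of 0.154 and quartiles of 0.117 and 0.194, so the Aldh2 replicates were less alike than those of most genes of its depth.

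**Figure D1:**
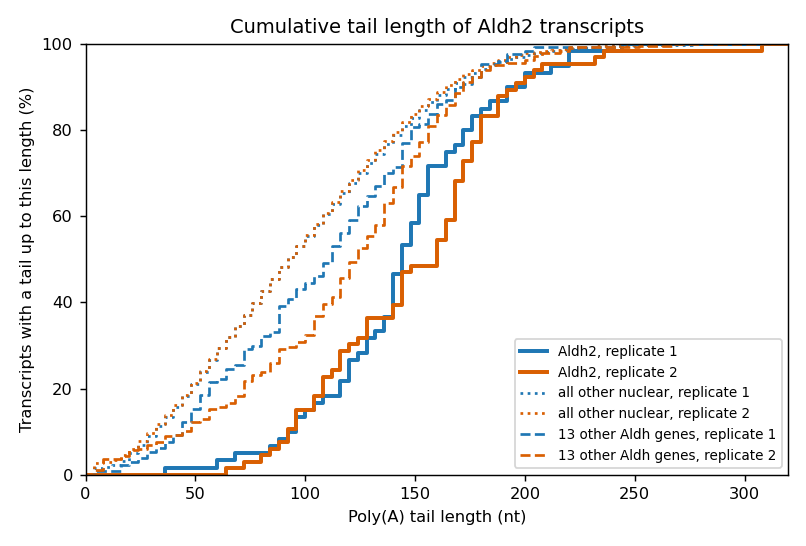
Cumulative share of transcripts (%, y axis) by poly(A) tail length (nt, x axis) in each replicate, for Aldh2 (solid), the 13 other Aldh genes with a transcript (dashed) and all other nuclear transcripts (dotted). The Aldh2 lines stay low up to 90 nt, past which 91.3% of its tails lie, and reach their middle at 144 and 158 nt, to the right of the other groups.

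Bases other than A were not used to choose the gene. They occurred in 15 of 126 Aldh2 tails, or 11.9% (7.35% to 18.7%). Since a longer tail gives more positions for such a base, the other nuclear tails were weighted to the same lengths, which gave 10.2%. The Aldh2 share was thus not distinguishable from that of tails of like length at this depth. The replicates stood apart, with 4 of 60 tails in replicate 1 (6.67%, 2.62% to 15.9%) and 11 of 66 in replicate 2 (16.7%, 9.57% to 27.4%), though the intervals overlapped. At the same lengths, the other nuclear tails had 11.3% and 9.18%, the opposite order. Per base, Aldh2 tails had 19 non-A bases among 18323, or 1.04 per kb of tail, against 1.54 per kb in all nuclear tails. These rates were not weighted to the same lengths. The lower rate came from replicate 1, with 0.584 per kb against 1.78, whereas replicate 2 had 1.43 against 1.40. Whether tail length had a part in these rates was not tested, and no difference is read from them.

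Most of these bases were close to the 3′ end. The last 4 nt held 13 of the 19 bases, in 12 tails, and they were 9 T and 4 G. The first 8 nt held 3 bases in 2 tails, and the stretch between held 3 bases in 3 tails, all C. Every T in an Aldh2 tail was therefore within 4 nt of the end. Where such bases lay in other nuclear tails was not counted, so this placing is not read as particular to Aldh2. The authors had also removed tails whose first 8 bases held fewer than 4 A, which limits other bases there. T was the last base of 5 tails (3.97%, 1.71% to 8.95%), against 1.60% of nuclear tails at the same lengths. G was the last base of 2 tails (1.59%, 0.436% to 5.60%), against 0.731%. C was the last base of none of 126, which allows up to 2.38%. When both end bases were set aside, 10 Aldh2 tails held a non-A base, 7.94% (4.37% to 14.0%) against 7.65% at the same lengths. All of these intervals included the nuclear share at the same lengths except that of T as the last base. Its lower bound of 1.71% was just above 1.60%, from 5 tails, and its interval included the unweighted nuclear share of 3.06%. In replicate 1 its share of 3.33% (0.919% to 11.4%) included the 2.03% at the same lengths. The exception thus rested on replicate 2, with 3 tails.

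**Figure D2:**
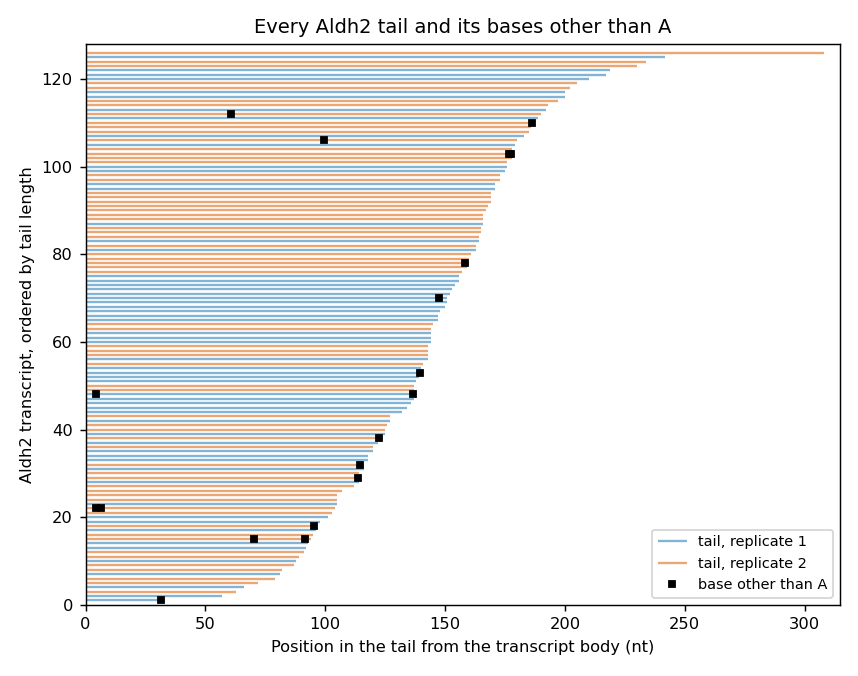
Each horizontal line is 1 of the 126 Aldh2 tails, drawn from the transcript body (left) to its end and coloured by replicate, with position in nt on the x axis and transcripts ordered by tail length on the y axis. Black squares mark the 19 bases other than A, 13 of which lie in the last 4 nt.

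Aldh2 was then placed among the 1775 nuclear genes for which each replicate held at least 30 transcripts. By gene tail length it was the second longest of the pooled values, the third in replicate 1 and the second in replicate 2. The median gene had 79.0 nt. In the wider set of genes with at least 10 transcripts in total, 12 of the 7145 others had a longer gene tail than Aldh2. By the 10th percentile of its tails, 92.5 nt, it shared the second place with 1 other gene, against 33.3 nt for the median gene. By the median tail it was the fifth, by the 90th percentile of 192.5 nt the seventh, and by the share over 200 nt the 16th. Its log2 SD was the fifth narrowest, against 0.994 for the median gene. Aldh2 thus ranked higher for few short tails than for very long ones. The geometric mean that chose Aldh2 is lowered most by short tails, so few short tails and a narrow spread partly follow from the choice. Aldh2 was 1 of 38 genes with no tail under 30 nt.

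The gene just above it was Gm12481, a processed pseudogene, with 139 nt from 122 transcripts, 134 and 144 nt in the replicates (SD 7.07). This value lay within the replicate spread of Aldh2, so the order of the pair was not distinguishable. Values of a pseudogene are uncertain, as its reads can be shared with a near-identical parent gene. Just below were Txn1, which encodes thioredoxin, with 134 and 126 nt from 102 transcripts, and Gm47283, with 146 and 114 nt from 83 transcripts. Txn1 had an SD of 5.91 nt and lay below Aldh2 in both replicates. Gm47283 was above Aldh2 in replicate 1 and below it in replicate 2 (SD 22.2), so its place relative to Aldh2 was unsettled. Among the 1612 protein-coding genes of this set, Aldh2 had the longest pooled gene tail.

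**Figure D3:**
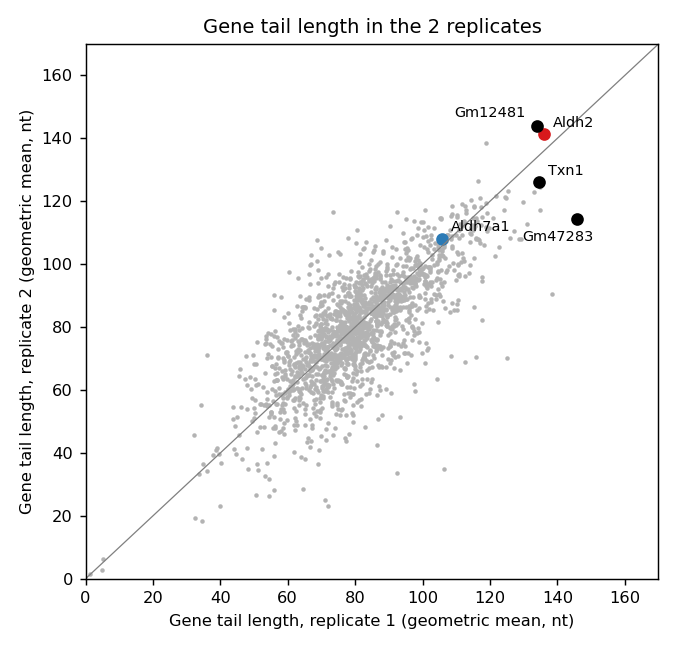
Gene tail length (geometric mean, nt) in replicate 1 (x axis) and replicate 2 (y axis) of 1775 nuclear genes with at least 30 transcripts in each, with the line of equal values. Aldh2 (red, 136 and 141 nt) and Gm12481 (134 and 144 nt) sit together at the upper right end, and Aldh7a1 (blue) lies at 106 and 108 nt.

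The distribution of Aldh2 tails was compared with those of 1611 protein-coding genes of the same set by the largest gap between cumulative distributions, where 0 means identical and 1 no overlap. The median gap was 0.447. The 5 genes most like Aldh2 were Cox6c, a subunit of cytochrome c oxidase (0.0897), Prdx1, a peroxiredoxin that reduces peroxides (0.107), Gm47283 (0.118), Txn1 (0.147) and Pfkl, the liver-type phosphofructokinase of glycolysis (0.153). The median tail of Cox6c was 145 nt from 111 transcripts, close to the Aldh2 median of 144.5 nt. Its gene tail length was shorter, at 128 nt, and 4.50% of its tails were under 60 nt, against 1.59% for Aldh2. Prdx1 had a median of 139 nt from 635 transcripts and a gene tail length of 120 nt. Pfkl had 147.5 nt and 128 nt from 72 transcripts. These genes had medians like that of Aldh2 but more short tails, apart from Txn1, with 1.96% of tails under 60 nt and a median of 137 nt.

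Aldh2 was next set against the other genes of its family, most of which encode enzymes that oxidise aldehydes with NAD+ or NADP+. Of 21 Aldh genes listed, 14 had a transcript and 8 had at least 10. Among these 8, 4 had a gene tail over 90 nt, Aldh2 included, and 22.7% of the 7145 other nuclear genes with at least 10 transcripts did. Without Aldh2 the count was 3 of 7, of which only Aldh7a1 was over 90 nt in both replicates. The count depended on the measure, with 2 family genes over 90 nt from reads with at least 15 passes and 8 by the arithmetic mean. The share of all nuclear genes over 90 nt was not counted at these settings. By the arithmetic mean, the median of the 1775 genes with at least 30 transcripts per replicate was itself 95.6 nt. The count of 8 is therefore not read as a trait of the family. By the geometric mean, the other 7 genes ranged from 66.4 to 107 nt with a median of 89.8 nt. All nuclear genes had a median of 76.4 nt, and 5 of the 7 were above that value. Aldh2 exceeded the median of the other family genes by 49.0 nt with the replicates pooled. With medians in place of geometric means the excess was 29.5 nt. In single replicates, where fewer family genes reached 10 transcripts, the excess was 30.3 nt for replicate 1 and 46.2 nt for replicate 2. Aldh2 was thus above the others in both, but in replicate 1 the value rested on 3 other genes.

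Aldh7a1 (ENSMUSG00000053644), the dehydrogenase of lysine breakdown, had the most transcripts of the family and, among genes with at least 10 transcripts, the next longest pooled gene tail. Its gene tail length was 106 and 108 nt in the replicates, or 107 nt ± 1.76 (SD, n = 2), from 56 and 109 transcripts. Its pooled median was 123 nt (116 to 130 nt), against 144.5 nt (139 to 156 nt) for Aldh2. These intervals cover counting error only and are not a test. Of its tails, 72.1% (64.8% to 78.4%) were over 90 nt. Aldh7a1 was below Aldh2 in both replicates. Aldh7a1 tails reached down to 3 nt, whereas those of Aldh2 did not go below 33 nt.

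Aldh9a1 (ENSMUSG00000026687, chromosome 1, 167349991 to 167368532), an enzyme of carnitine synthesis, had 107 nt in replicate 1 from 28 transcripts and 82.3 nt in replicate 2 from 57 (SD 17.8). Its pooled gene tail was 89.8 nt, just under the boundary of 90 nt, and its median was 115 nt (100 to 140 nt). In replicate 2, 6 of its tails had exactly 7 nt and the same sequence, read from 6 different wells. Without them, a choice made after the values were seen, Aldh9a1 had 110 nt in replicate 2 and 109 nt pooled, and 5 family genes rather than 4 were over 90 nt. The origin of these tails was not tested. No Aldh2 tail was that short.

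The other mitochondrial members with at least 10 transcripts had shorter gene tails than Aldh2. Aldh18a1, which makes the precursor of proline, had a pooled gene tail of 87.4 nt from 23 transcripts, with 31.8 nt from 5 in replicate 1 and 116 nt from 18 in replicate 2. Aldh6a1, of valine breakdown, had 69.1 and 70.6 nt from 8 and 20 transcripts. Aldh1b1, another mitochondrial enzyme that oxidises acetaldehyde, had 62.1 and 67.5 nt from 3 and 13 transcripts. The pooled values of these 3 genes ranged from 66.4 to 87.4 nt. Aldh3a2, the fatty aldehyde dehydrogenase of the endoplasmic reticulum, had 81.3 and 111 nt from 9 and 6 transcripts. Aldh16a1 had 68.6 and 130 nt from 13 and 10 transcripts. For Aldh18a1, Aldh3a2 and Aldh16a1 the replicates lay on either side of 90 nt, so their pooled values do not place them firmly.

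The remaining 13 family genes had too few transcripts for a gene tail. Aldh4a1 had 9, Aldh5a1 had 5, Aldh1l1 had 4, Aldh1a2 had 2, and Aldh1l2 and Aldh1a3 had 1 each. The other 7, Aldh1a1, Aldh1a7, Aldh3a1, Aldh3b1, Aldh3b2, Aldh3b3 and Aldh8a1, had none. Counted as transcripts instead of genes, the 377 tails of the 13 other detected Aldh genes had a median of 118 nt (112 to 123 nt), between the other nuclear transcripts and Aldh2. Of these tails, 66.8% (61.9% to 71.4%) were over 90 nt and 2.92% (1.64% to 5.15%) over 200 nt. Tails under 60 nt made up 17.8% of them, against 1.59% in Aldh2. Aldh7a1 and Aldh9a1 gave 165 and 85 of these transcripts, so this pool is mostly those 2 genes. A non-A base was read in 8.48% of Aldh7a1 tails (5.12% to 13.7%) and in 8.24% of Aldh9a1 tails (4.05% to 16.0%), both overlapping the interval of Aldh2.

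**Figure D4:**
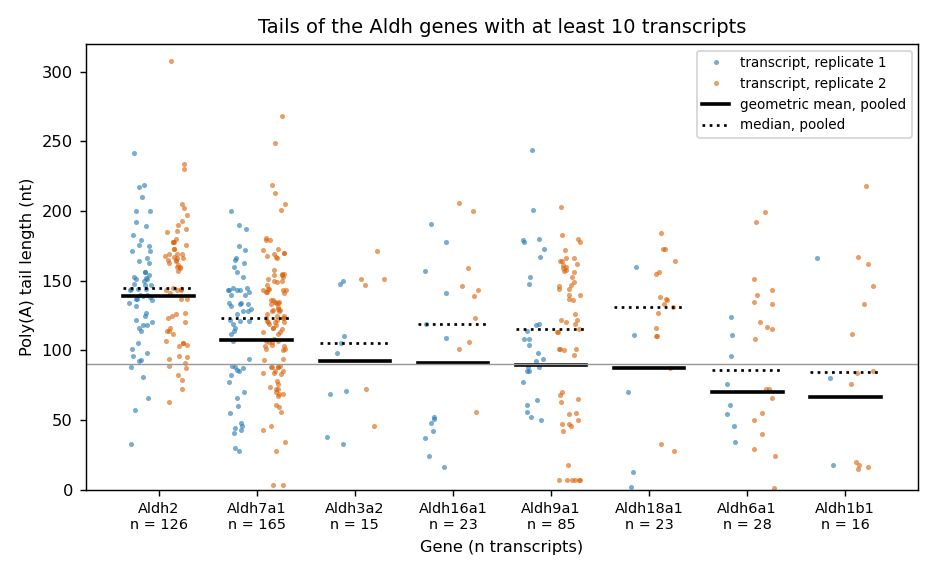
Poly(A) tail length (nt, y axis) of each transcript, coloured by replicate, for the 8 Aldh genes with at least 10 transcripts, with the pooled geometric mean (solid bar), the pooled median (dotted bar) and a grey line at 90 nt. Aldh2 and Aldh3a2 have no tail under 30 nt, and Aldh9a1 shows a row of 6 tails at 7 nt in replicate 2.

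Other enzymes that handle aldehydes were also compared. Of 20 listed, 13 had at least 10 transcripts. Their median gene tail was 88.3 nt, 12 of 13 were above the median of all genes, and 6 were over 90 nt (46.2%, against 22.7% of all other nuclear genes). None was longer than Aldh2, and only 12 of the 7145 other nuclear genes were. The longest with at least 30 transcripts were Akr1a1, an aldehyde reductase, with 97.6 and 114 nt in the replicates from 241 transcripts, Ptgr1, which reduces lipid-derived enones and enals, with 111 and 99.9 nt from 189, and Glo1, the glyoxalase that acts on methylglyoxal, with 89.2 and 92.4 nt from 614. The shortest were Esd, with 77.2 and 69.8 nt from 89, Adh5, with 83.6 and 76.5 nt from 214, and Cbr3, a carbonyl reductase, with 79.4 and 88.3 nt from 41. Esd and Adh5 both belong to the glutathione-dependent route of formaldehyde oxidation. The range of the list, 72.2 to 106 nt, lay wholly below Aldh2, which its choice by tail length made likely for any list.

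Enzymes of the tricarboxylic acid (TCA) cycle and pyruvate dehydrogenase share the mitochondrial location of the Aldh2 product. All 21 listed had at least 10 transcripts. Their median gene tail of 78.9 nt was close to that of all genes, and 6 of 21 (28.6%) were over 90 nt, near the 22.7% of all other nuclear genes. The longest were Sdhc, a subunit of succinate dehydrogenase, with 114 nt in both replicates from 45 transcripts, Suclg2, of GTP-forming succinyl-CoA ligase, with 131 and 96.0 nt from 47, and Idh2, the NADP+-dependent isocitrate dehydrogenase, with 94.9 and 107 nt from 158. The shortest with at least 30 transcripts were Dld, with 64.2 and 57.2 nt from 109, Sucla2, with 68.7 and 70.4 nt from 188, and Idh3b, with 79.8 and 66.8 nt from 118. In each replicate, none of these 6 genes reached the Aldh2 value, which the choice of Aldh2 by tail length made likely for any gene.

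**Figure D5:**
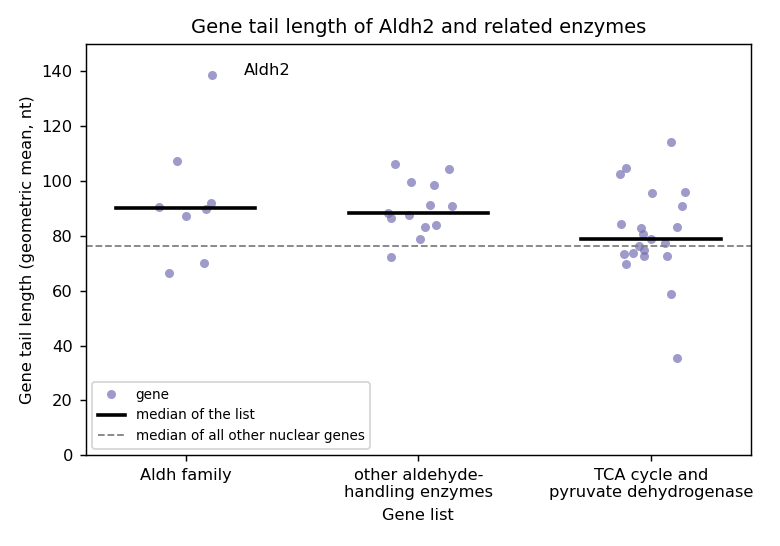
Pooled gene tail length (geometric mean, nt, y axis) of genes with at least 10 transcripts in the Aldh family, other aldehyde-handling enzymes, and the TCA cycle with pyruvate dehydrogenase (x axis), with each list's median (bar) and the median of all other nuclear genes, 76.4 nt (dashed line). Aldh2, at 139 nt, stands above every gene of the 3 lists, whose next longest is Sdhc at 114 nt.

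The genes around Aldh2 had shorter gene tails, as did all but 12 of the 7145 other nuclear genes with at least 10 transcripts. On one side Erp29 (ENSMUSG00000029616, chromosome 5, 121428590 to 121452506), which encodes an endoplasmic reticulum protein, had 89.0 and 75.5 nt from 89 transcripts at a distance of 113.5 kb. On the other side Brap (ENSMUSG00000029458, chromosome 5, 121660563 to 121687256), which encodes a BRCA1-associated protein, had 51.3 and 57.0 nt from 15 transcripts at 66.7 kb. Both are the nearest genes with at least 10 transcripts, and both lay far below Aldh2. The predicted gene Gm42879 overlaps Aldh2 and had 0 transcripts. Aldh2 was then set against genes of like annotated length. Among 1007 protein-coding genes whose longest transcript was within 10% of 3867 nt, the median gene tail was 72.5 nt, with quartiles of 60.8 and 85.5 nt. Of these, 1 was longer than Aldh2, against 12 of the 7145 other nuclear genes. As Aldh2 was chosen by its tail length, almost any gene would fall below it, and nothing more is read from these comparisons.

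The abundance of Aldh2 differed between the replicates. It made up 0.0244% of the nuclear transcripts of replicate 1 (0.0189% to 0.0314%) and 0.0145% of those of replicate 2 (0.0114% to 0.0184%). Aldh7a1 made up 0.0227% (0.0175% to 0.0295%) and 0.0239% (0.0198% to 0.0289%), and Aldh9a1 0.0114% (0.00787% to 0.0164%) and 0.0125% (0.00966% to 0.0162%). The lower share in replicate 2 was thus seen for Aldh2 but not for these 2 family genes. It was not particular to Aldh2 within the family. Aldh16a1 (13 and 10 transcripts) and Aldh3a2 (9 and 6) also had fewer in replicate 2, which held more nuclear transcripts. Aldh18a1 (5 and 18), Aldh6a1 (8 and 20) and Aldh1b1 (3 and 13) had more, and all 5 rest on few transcripts. The intervals cover counting error only, and how often other nuclear genes differed as much between the replicates was not counted. In cultured cells read in bulk, fewer cells with the transcript and less RNA per cell cannot be told apart. The mitochondrial share of assigned transcripts, 18.3% and 9.23%, also differed between the replicates, and its part in this difference was not tested.

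The number of passes, which sets the accuracy of a read, was also examined. Passes of Aldh2 reads ranged from 7 to 448, their median being 39, against 35 for all nuclear reads. The median Aldh2 tail was 145.5 nt in 22 reads of 7 to 14 passes, 153.5 nt in 28 reads of 15 to 29, 152.5 nt in 46 reads of 30 to 99 and 140 nt in 30 reads of at least 100 passes. The corresponding nuclear medians were 91 nt in the first 3 classes and 94 nt in the last. Long Aldh2 tails were thus seen in each class of passes. Spearman's correlation of passes with tail length over the Aldh2 reads was 0.198 in replicate 1 (n = 60) and -0.362 in replicate 2 (n = 66), so its sign was not shared. Reads of a replicate share a library and a sequencing run, and these values only describe them. Near the limit of 7 passes, 4 reads with exactly 7 had tails of 105 to 202 nt.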

How the data were processed

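PAIso-seq had been run on wild-type 24h-EpiLCs with 2 barcoded replicates. According to the methods, the authors built consensus reads with ccs, split them by barcode and trimmed adapters. The submitters' processing notes name minimap2 2.17, featureCounts 2.0.1 and mm10. Soft-clipped bases past the 3′ end were taken as the tail, extended into adjoining A tracts, while tailless reads were dropped. The authors' deposited table gives per read the barcode, gene, passes, the tail sequence and the count of each base in it, not normalized. These base counts equalled the sequence in 100% of reads.

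Tail length was the length of the deposited sequence. Reads with at least 7 passes and a gene were used. Gene names and places came from GENCODE vM21 (GRCm38), in which 12955 of 12962 identifiers were found. The gene tail length was the geometric mean over transcripts, for genes with at least 10. Places and likeness used at least 30 in each replicate. Lengths were matched in classes of 10 nt, joined from 250 nt. Intervals are 95%, Wilson for shares and order statistics for medians. The limit for a count of 0 is 3 counts. Without molecular identifiers they cover counting error only.

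Aldh2 and all lists were chosen with earlier results of these data known. With 1 group and a gene chosen by its tail length, no p-value was computed. Genes named were Aldh2, Aldh genes with at least 10 transcripts (others by transcript number), the 3 longest and 3 shortest of each other list with at least 30 transcripts, the 5 protein-coding genes most alike, the 2 next genes on each side by gene tail length (1 above existed), and the nearest gene on each side with at least 10 transcripts. Tails shown came from those with a non-A base, the longest and shortest in each replicate. Alternatives changed the pass limit, length measure, summary, minimum of transcripts, gene set and wells, and left out either replicate. The scripts ran under Python 3.11.15 with scipy 1.17.1, pandas 2.3.3, numpy 2.4.6 and matplotlib 3.10.9, and were tested on simulated data.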

Additional observations from a re-analysis of the deposited data

Results flagged for a closer look

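The comparisons use no read with fewer than 7 passes. Among these, 5 further reads were assigned to Aldh2, which is above the limit of 3 counts used for a count of 0. All were in replicate 2, which also had more reads under 7 passes, and no difference between the replicates is read from them. They had 4 to 6 passes and tails of 125, 138, 150, 167 and 188 nt, with a median of 150 nt, within the range of the reads used. The 150 nt tail held 2 bases other than A.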

How the results depend on the processing

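No paired analysis was possible because only 1 group was analysed. The spread comes from 2 replicates of 60 and 66 Aldh2 transcripts. Of 66 values recomputed from both replicates under an alternative, 49 moved by less than 1 SD, or, for the family count, by at most 1.5 times. The Aldh2 gene tail was 145.4 nt as an arithmetic mean and 144.5 nt as a median. The share over 90 nt was 92.1% both with at least 30 passes and in wells with 1 transcript. The share over 200 nt was 5.77% with at least 15 passes and 7.89% in wells with 1 transcript. Aldh2 was in place 1 with no pass minimum, at least 15 passes, at least 30 passes, protein-coding genes only, or wells with 1 transcript, place 3 of 4286 genes that had at least 10 transcripts per replicate, and place 5 by the median. Family genes over 90 nt numbered 2 with at least 15 passes and 8 with the arithmetic mean. The share of all nuclear genes at these settings was not counted. The difference from the other Aldh genes was 34.8 nt by arithmetic means and 29.5 nt by medians. After the values were seen, the 7 nt tails of Aldh9a1 were left out, which gave 5 family genes and 48.2 nt.

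With 1 replicate left out, the Aldh2 gene tail was 136 to 141 nt, the median 144 to 158 nt, the share over 90 nt 90.9% to 91.7%, the share over 200 nt 6.67% to 7.58%, the share with a non-A base 6.67% to 16.7%, the place 2 to 3, the family count 3 to 4 and the difference from other Aldh genes 30.3 to 46.2 nt. The non-A share and that difference were thus the values most dependent on 1 replicate.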
